A study of Bos taurus with 6 samples.

Results

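The 76 genes described here encode enzymes that activate, elongate, desaturate and oxidise fatty acids, build ceramide and cholesterol, and form or use ketone bodies. They were chosen by gene symbol from the 14179 symbols of a count table of bovine fetal tissues. No measured value entered the rule, but earlier results of these data were known. Of the 76, 74 had counts in at least 1 library and 72 passed a filter on low counts and were tested. The synthetases ACSM1 and ACSM2B had no counts in any library, and ELOVL3 and OXCT2 had too few to be tested.

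The table held poly(A) RNA libraries of rumen (Rumen 1 and 2), the largest forestomach chamber of cattle, of liver (Liver 1 and 2) and of forebrain (Forebrain 1 and 2). All came from wild-type male Holstein fetuses, aged 90 days and 13 to 16 cm long from crown to rump, and the labels name no treatment of these tissues. The fetuses were collected at slaughter, and only 2 of the 4 were male, so the 6 libraries shared at most 2 fetuses and every p-value below rests on the spread within these library pairs, which may be technical. The series asks how the rumen acquires functions of its own, and the comparisons were rumen with liver, rumen with forebrain and liver with forebrain.

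Fatty acids enter metabolism as thioesters of coenzyme A. Carnitine palmitoyltransferases carry long chains into mitochondria, where acyl-CoA dehydrogenases, hydratases and thiolases shorten them in repeated turns, and in liver the acetyl-CoA produced can leave as ketone bodies. Adult rumen epithelium is known for making ketone bodies from the butyrate of microbial fermentation, whereas a fetus has no such fermentation. Cholesterol is built from the same acetyl-CoA, and the brain, behind its barrier, makes its own.

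Total counts ranged from 10271024 to 18528958 per library, and levels are in CPM, the usual scaling of counts to library size, with the effective library size as its base. For genes at 0, the floor used was 3 counts summed over a tissue's pair of libraries, which equalled 0.116 CPM in rumen, 0.103 CPM in liver and 0.115 CPM in forebrain, for counting error only. Marker lists of squamous epithelium, hepatocytes and neurons went with the tissue labels. A radial glia and astrocyte list, with 9 of 10 genes, separated forebrain from rumen less. It summed to 1477 to 1483 CPM in rumen, 160 to 226 CPM in liver and 1937 to 2494 CPM in forebrain. The stratified squamous epithelium list, with 9 of 10 genes in the table, summed to 11926 to 14598 CPM in rumen, 85.7 to 183 CPM in liver and 6.79 to 7.81 CPM in forebrain. A fibroblast list, 8 of 8, summed to 16552 to 17209 CPM in rumen, 832 to 1150 CPM in liver and 99.6 to 169 CPM in forebrain. A smooth muscle list, 8 of 8, summed to 9877 to 10494 CPM in rumen, 289 to 368 CPM in liver and 55.3 to 81.6 CPM in forebrain. Rumen levels below are thus not those of epithelium alone. The hepatocyte list, with 9 of 10 genes, summed to 71.1 to 78.8 CPM in rumen, 198157 to 234235 CPM in liver and 104 to 137 CPM in forebrain, with HNF4A at 0 in rumen and AFP and AHSG at 0 in forebrain. The neuronal list, with 10 of 10 genes, summed to 438 to 466 CPM in rumen, 64.1 to 82.7 CPM in liver and 11863 to 12452 CPM in forebrain. Erythroid markers, 10 of 10, summed to 457 to 547 CPM in rumen, 150938 CPM in Liver 1, 58580 CPM in Liver 2 and 461 to 498 CPM in forebrain. The part of any cell type in the differences below was not tested, and in such bulk tissue fewer cells of a type and less RNA per cell cannot be told apart. The 2 Liver libraries differed more than the other pairs. Among genes whose mean count reached 1000, the SD of the log2 ratio within a pair was 0.212 in rumen, 0.947 in liver and 0.249 in forebrain.

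Rumen held the highest mean of 5 of the 72 tested enzymes, liver of 43 and forebrain of 24, an order not counted over all tested genes. In rumen against liver, 6 of 72 enzymes were higher and 34 lower, in a quasi-likelihood test of edgeR, Benjamini-Hochberg adjusted across all 11478 tested genes at a threshold of 0.05, the test behind every edgeR adjusted p below. Over all tested genes 21.2% were higher and 21.8% lower in that comparison. The enzymes had a median log2 fold change of -1.11 (-1.09 with genes absent from a tissue set at their bound), against -0.06 over all tested genes. In rumen against forebrain 17 enzymes were higher and 20 lower, where 20.3% of all tested genes were higher and 21.5% lower, and the shares of the enzymes, 23.6% and 27.8%, lay near those of all genes. In liver against forebrain 32 enzymes were higher and 16 lower, where 30.5% of all tested genes were higher and 27.3% lower, with a median log2 fold change of 0.82 against 0.14 over all genes. The 3 comparisons share libraries and are not independent of each other. These shares of all tested genes also stand beside the counts by role group below, which were not tested against them.

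Counted over both comparisons of a tissue, 25 enzymes (34.7%) were higher in liver than in rumen and forebrain, where 16.9% of all tested genes were. Only 2 enzymes (2.78%), CERS3 and ACOT2, were higher in rumen than in both other tissues, where 8.20% of all tested genes were. Another 9 (12.5%) were lower in rumen than in both, among them ACSL6, ELOVL5, ELOVL7, FADS2, FADS3, SCD, FDFT1 and DHCR7, where 4.22% of all tested genes were. Forebrain stood above both other tissues for 11 (15.3%), close to the 16.4% of all tested genes, and below both for 15 (20.8%), where 12.4% of all tested genes were. Liver was below both for 4 (5.56%), namely ACOT13, BDH2, CERS4 and ELOVL4, where 12.9% of all tested genes were. In 13 enzymes (18.1%) no comparison passed the test, where this held for 28.4% of all tested genes. These shares describe the enzymes and were not tested against other genes.

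**Figure D1:**
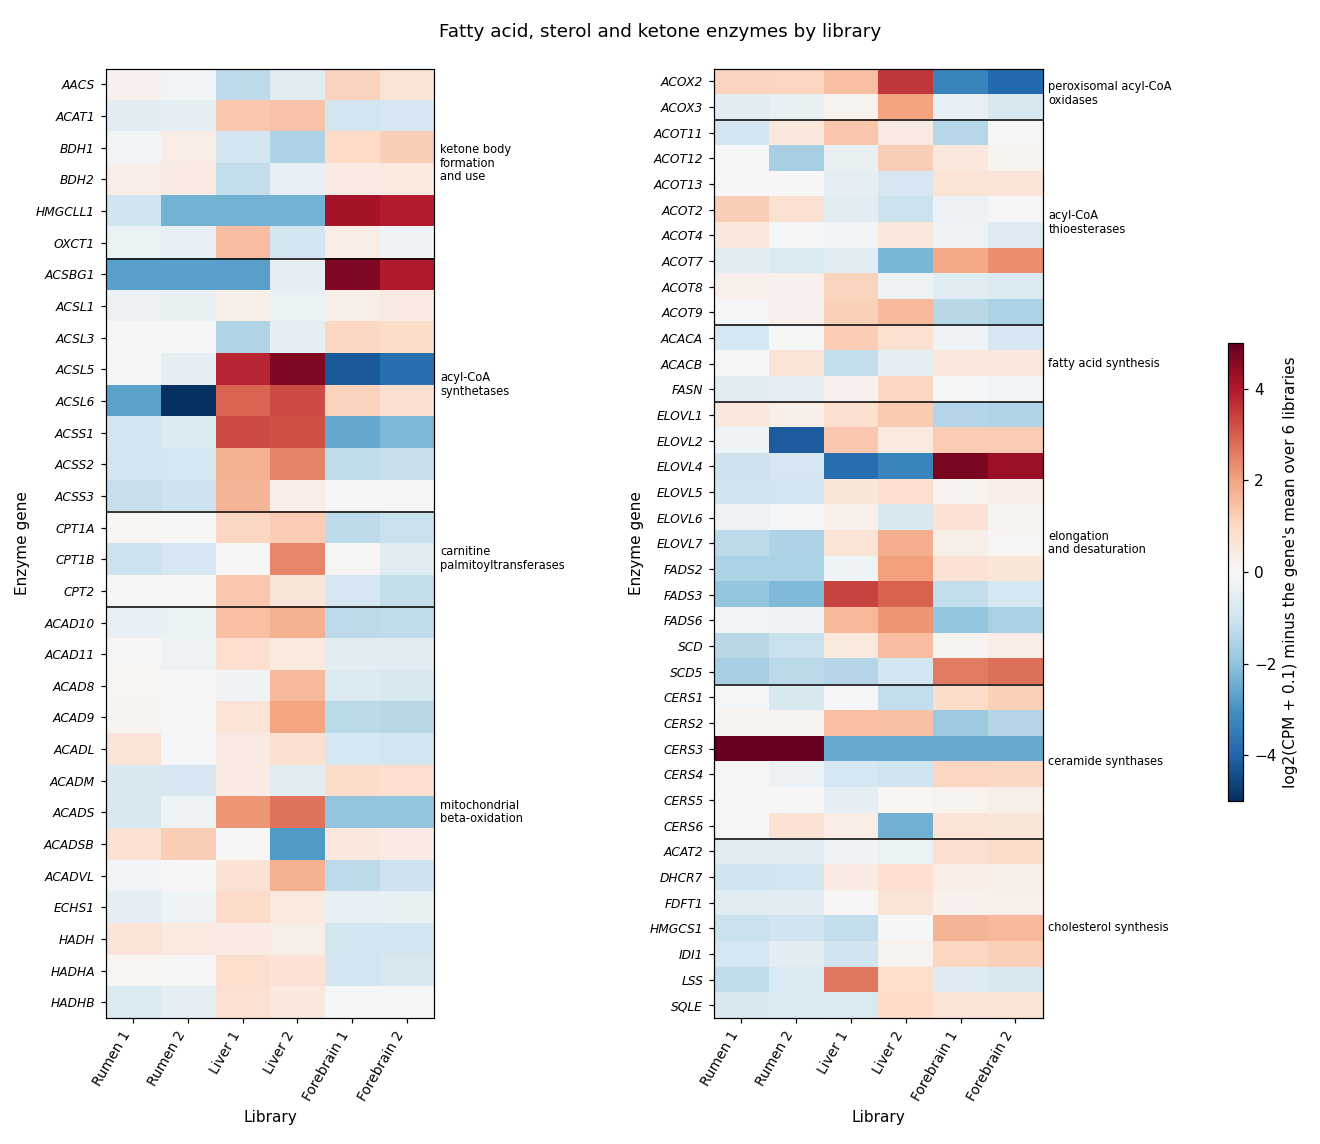
Levels of 67 of the 72 tested enzymes, 1 row per gene and 1 column per library, as log2(CPM + 0.1) minus the gene's mean over the 6 libraries; red is above and blue below that mean, and horizontal lines part the role groups. CERS3 is red in the 2 Rumen libraries alone and HMGCLL1 in the 2 Forebrain libraries alone.

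Counts of calls moved with single libraries, and the counts over all tested genes moved in the same directions in these fits. In rumen against liver the lower enzymes numbered 18 without Rumen 1, 18 without Rumen 2, 42 without Liver 1 and 40 without Liver 2, and the higher ones numbered 2 without Rumen 1, 3 without Rumen 2, 3 without Forebrain 1, 3 without Forebrain 2 and 10 without Liver 1. In rumen against forebrain 9 were higher and 9 lower without Rumen 1, 8 and 8 without Rumen 2, 6 and 11 without Forebrain 1, and 5 and 10 without Forebrain 2. With either Liver library left out, 22 were higher and 32 lower there, and with both left out, a fit added after the data were seen, 23 were higher and 31 lower. In liver against forebrain the higher enzymes numbered 21 without Forebrain 1 and 20 without Forebrain 2. A tissue left with 1 library is assumed to vary like the others. No called enzyme changed direction in these fits. Unless another fit is named, passing a test below refers to edgeR on all 6 libraries. With library totals as the only scaling, which moved the median of all tested genes by 0.29, -0.15 and -0.47 on the log2 scale in the same order of comparisons, 9 were higher and 26 lower in rumen against liver, 13 higher and 26 lower in rumen against forebrain, and 25 higher and 20 lower in liver against forebrain.

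Among ketone body enzymes, ACAT1, the mitochondrial thiolase that supplies acetoacetyl-CoA, was highest in liver. It had 61.9 and 65.9 CPM in rumen, 229 and 247 CPM in liver and 47.7 and 51.3 CPM in forebrain. It was 3.73-fold lower in rumen than in liver (log2 fold change -1.90 ± 0.199 SE; edgeR adjusted p = 0.000536) and 4.82-fold higher in liver than in forebrain (edgeR adjusted p = 0.000158). The enzymes that interconvert and use ketone bodies had other orders. BDH1, the mitochondrial dehydrogenase that makes beta-hydroxybutyrate from acetoacetate, was low everywhere, at 2.22 and 3.20 CPM in rumen, 1.27 and 0.771 CPM in liver and 5.04 and 5.85 CPM in forebrain, and lower in liver than in forebrain (log2 fold change -2.43; edgeR adjusted p = 0.00905). BDH2, a cytosolic short-chain dehydrogenase, had 43.9 and 46.7 CPM in rumen, 15.0 and 26.3 CPM in liver and 46.5 and 49.0 CPM in forebrain. It was 2.18-fold higher in rumen than in liver (edgeR adjusted p = 0.0271), and its rumen and forebrain libraries overlapped. OXCT1, the transferase with which tissues outside the liver reactivate acetoacetate, passed no test, at 10.3 and 9.91 CPM in rumen, 38.3 and 6.62 CPM in Liver 1 and 2 and 17.1 and 11.3 CPM in forebrain. Liver 1 was its highest library and Liver 2 its lowest. Its log2 fold change was -1.14 in rumen against liver and 0.66 in liver against forebrain, but 0.61 and -1.09 without Liver 1, where liver was lower than forebrain (edgeR adjusted p = 0.0214). Without Liver 2 the calls ran the other way, with rumen lower than liver (log2 fold change -1.92; edgeR adjusted p = 6.7e-05) and liver higher than forebrain (log2 fold change 1.44; edgeR adjusted p = 0.000438). AACS, a cytosolic synthetase that routes acetoacetate to lipid synthesis, had 38.8 and 30.4 CPM in rumen, 13.4 and 21.6 CPM in liver and 74.0 and 53.4 CPM in forebrain, with no overlap between tissues. Only its liver level against forebrain passed (log2 fold change -1.86; edgeR adjusted p = 0.00355). HMGCLL1, a lyase outside mitochondria, had 2 and 0 counts in rumen, 0 and 0 in liver and 112 and 105 in forebrain. It was lower in rumen than in forebrain (edgeR adjusted p = 0.00217) and at least 80.2-fold lower in liver than in forebrain (edgeR adjusted p = 0.000943). OXCT2, a relative of OXCT1, had 0 and 0 counts in rumen, 3 and 17 in liver and 4 and 5 in forebrain. Among the 8 tested ketone genes, 1 was higher and 3 lower in rumen against liver, 1 higher and 1 lower in rumen against forebrain, and 3 higher and 4 lower in liver against forebrain. BDH2 (log2 fold change 0.78 to 1.59) lost its call in rumen against liver without either Rumen library or either Forebrain library. BDH1 (log2 fold change -2.81 to -2.11) and BDH2 (log2 fold change -1.67 to -0.87) lost their calls in liver against forebrain without either Forebrain library.

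**Figure D2:**
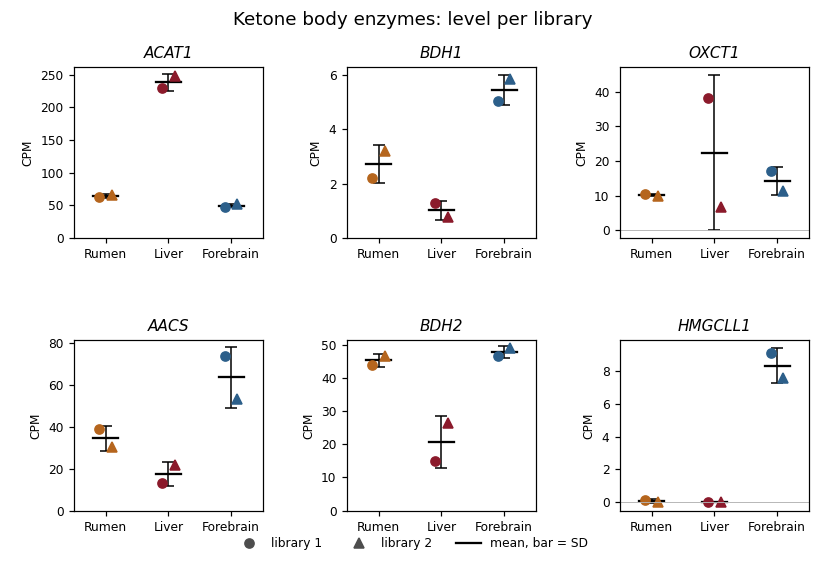
CPM of 6 of the 8 tested ketone body enzymes in rumen, liver and forebrain, with circles for library 1, triangles for library 2, a line at the mean and a bar of 1 SD (n = 2). ACAT1 is highest in liver, BDH1 is highest in forebrain, and the 2 Liver libraries of OXCT1 lie at 38.3 and 6.62 CPM.

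Acyl-CoA synthetases, which charge free fatty acids, held some of the widest gaps between tissues. ACSL5, a long-chain synthetase of mitochondria and endoplasmic reticulum, had 8.88 and 6.63 CPM in rumen, 129 and 226 CPM in liver and 0.407 and 0.578 CPM in forebrain. It was 22.9-fold lower in rumen than in liver (log2 fold change -4.51 ± 0.371 SE; edgeR adjusted p = 0.000173), 15.4-fold higher in rumen than in forebrain (edgeR adjusted p = 0.00193) and 351-fold higher in liver than in forebrain (edgeR adjusted p = 3.07e-05). ACSL6, a long-chain synthetase known from brain and from red cell precursors, had 1.68 and 0.156 CPM in rumen, 85.6 and 109 CPM in liver and 25.5 and 19.9 CPM in forebrain. All 3 comparisons passed, at log2 fold changes of -6.70 in rumen against liver (edgeR adjusted p = 0.000265), -4.60 in rumen against forebrain (edgeR adjusted p = 0.00131) and 2.10 in liver against forebrain (edgeR adjusted p = 0.00455). Its Liver 2 value was above that of Liver 1, and the summed erythroid markers were 58580 CPM in Liver 2 and 150938 CPM in Liver 1. The part of red cell precursors in its liver level was not tested. ACSL3, a synthetase of endoplasmic reticulum and lipid droplets, was highest in forebrain, with 123 and 119.7 CPM in rumen, 42.7 and 89.1 CPM in liver and 252 and 231 CPM in forebrain, and passed in liver against forebrain (log2 fold change -1.87; edgeR adjusted p = 0.00379). ACSBG1, a very-long-chain synthetase of the nervous system, had its counts mainly in forebrain, with 0 and 0 counts in rumen, 0 and 6 in liver and 200 and 141 in forebrain, which puts it at least 112-fold lower in rumen than in forebrain (edgeR adjusted p = 0.00166). Its liver counts all lay in Liver 2, and liver was also lower than forebrain (edgeR adjusted p = 0.00128). ACSL1, the main long-chain synthetase of adult liver and fat, passed no test, at 23.7 and 22.2 CPM in rumen, 35.4 and 22.9 CPM in liver and 35.2 and 39.8 CPM in forebrain.

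Synthetases of short chains were highest in liver. ACSS1, which activates acetate in mitochondria, had 5.59 and 6.40 CPM in rumen, 103 and 96.8 CPM in liver and 1.71 and 2.17 CPM in forebrain. It was 16.6-fold lower in rumen than in liver (edgeR adjusted p = 0.000122) and 3.07-fold higher in rumen than in forebrain (edgeR adjusted p = 0.0108). ACSS2, its counterpart in cytosol and nucleus, had 13.7 and 14.5 CPM in rumen, 93.7 and 153 CPM in liver and 11.3 and 11.98 CPM in forebrain, 8.75-fold lower in rumen than in liver (edgeR adjusted p = 0.000471). ACSS3, which in rat prefers propionate, had 3.67 and 3.98 CPM in rumen, 27.3 and 10.3 CPM in liver and 8.62 and 8.66 CPM in forebrain, 4.88-fold lower in rumen than in liver (edgeR adjusted p = 0.0169). Acetate and propionate are main products of rumen fermentation after birth, and none of the 3 synthetases was higher in fetal rumen than in liver. Among the 8 tested acyl-CoA synthetases, 0 were higher and 5 lower in rumen against liver by edgeR (the count of higher ones was 1 at an unadjusted p under 0.05 and 0 by DESeq2), 2 were higher and 2 lower in rumen against forebrain, and 4 were higher and 2 lower in liver against forebrain. Their median log2 fold change in rumen against liver was -3.59, or -2.71 with ACSBG1 at its bound. Without Rumen 1 the rumen level of ACSL6 rested on 2 counts. ACSS3 (log2 fold change -2.83 to -1.42) lost its call in rumen against liver without either Rumen library. ACSL6 had a log2 fold change of -9.20 without Rumen 1 and -5.82 without Rumen 2 in rumen against liver. ACSS1 (log2 fold change 1.49 to 1.83) lost its call in rumen against forebrain without Rumen 2 or either Forebrain library. ACSL6 had a log2 fold change of -7.11 without Rumen 1 and -3.72 without Rumen 2 in rumen against forebrain. ACSL6 (log2 fold change 1.91 to 2.28) lost its call in liver against forebrain without Forebrain 2. ACSL3 had a log2 fold change of -2.51 without Liver 2 in liver against forebrain.

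Of the carnitine palmitoyltransferases, CPT1A and CPT2 stood in the order liver, rumen, forebrain. CPT1A, the outer-membrane transferase that controls entry of long chains, had 30.3 and 28.9 CPM in rumen, 57.3 and 68.1 CPM in liver and 11.2 and 13.0 CPM in forebrain. It was 2.12-fold lower in rumen than in liver (edgeR adjusted p = 0.0128) and 2.44-fold higher in rumen than in forebrain (edgeR adjusted p = 0.00853). CPT2, the inner-membrane partner, had 28.2 and 27.6 CPM in rumen, 70.0 and 41.0 CPM in liver and 15.0 and 11.7 CPM in forebrain, with edgeR adjusted p = 0.0488 in rumen against liver and 0.0470 in rumen against forebrain, close to the threshold. CPT1B, the muscle form, had 3.14 and 3.75 CPM in rumen, 6.85 and 36.6 CPM in Liver 1 and 2 and 6.99 and 4.33 CPM in forebrain. Its call in rumen against liver (log2 fold change -2.67; edgeR adjusted p = 0.0376) came with a far higher Liver 2 than Liver 1. Summed markers of skeletal or cardiac muscle, 8 of 8 in the table, were 40.1 to 40.4 CPM in rumen, 5.88 CPM in Liver 1, 21.4 CPM in Liver 2 and 11.8 to 14.7 CPM in forebrain, with MYOG at 0 in all 3 tissues; their part was not tested. All 3 transferases were lower in rumen than in liver, 2 were higher in rumen than in forebrain and 2 higher in liver than in forebrain. CPT1A (log2 fold change -1.20 to -0.95) lost its call in rumen against liver without either Rumen library. CPT1B (log2 fold change -3.41 to -0.99) lost its call in rumen against liver without either Rumen library or Liver 2 or either Forebrain library. CPT2 (log2 fold change -1.33 to -0.56) lost its call in rumen against liver without either Rumen library or Liver 1 or either Forebrain library. CPT1A (log2 fold change 1.21 to 1.43) and CPT2 (log2 fold change 0.92 to 1.27) lost their calls in rumen against forebrain without either Rumen library or either Forebrain library. The calls of CPT1A in rumen against liver, CPT1B in rumen against liver, CPT2 in rumen against liver and CPT2 in rumen against forebrain were also lost with library totals as the only scaling. The calls of CPT2 in rumen against liver and CPT2 in rumen against forebrain were also lost with RLE scaling factors. The calls of CPT2 in rumen against liver and CPT2 in rumen against forebrain were also lost with no filter on low counts.

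Among acyl-CoA dehydrogenases the short-chain ACADS showed the widest gap, at 25.6 and 37.5 CPM in rumen, 203 and 293 CPM in liver and 11.1 and 11.6 CPM in forebrain. It was 7.85-fold lower in rumen than in liver (log2 fold change -2.97 ± 0.301 SE; edgeR adjusted p = 0.000466), 2.77-fold higher in rumen than in forebrain (edgeR adjusted p = 0.00933) and 21.7-fold higher in liver than in forebrain (edgeR adjusted p = 7.44e-05). ACADVL, for very long chains, had 72.3 and 77.5 CPM in rumen, 131 and 266 CPM in liver and 31.2 and 38.0 CPM in forebrain, 2.65-fold lower in rumen than in liver (edgeR adjusted p = 0.0177) and 2.16-fold higher than in forebrain (edgeR adjusted p = 0.0438). ACADM, for medium chains, ran the other way against forebrain, while both its Rumen libraries also lay below both Liver libraries, without a call. It had 28.5 and 27.7 CPM in rumen, 67.4 and 34.6 CPM in liver and 95.2 and 90.0 CPM in forebrain, and was 3.29-fold lower in rumen than in forebrain (edgeR adjusted p = 0.00755). No other enzyme of this group was called lower there by edgeR, while DESeq2 also called HADHB lower. ACAD9, which also assembles respiratory complex I, had 46.0 and 41.1 CPM in rumen, 67.6 and 164 CPM in liver and 16.2 and 15.7 CPM in forebrain, and ACAD10, a less studied relative, 6.97 and 7.34 CPM in rumen, 26.5 and 32.1 CPM in liver and 3.66 and 3.83 CPM in forebrain. Both were lower in rumen than in liver, by 2.66-fold (edgeR adjusted p = 0.0305) and 4.10-fold (edgeR adjusted p = 0.00310). ACADL, for long chains, ACAD8, of valine breakdown, and ACAD11 passed in liver against forebrain alone, with log2 fold changes of 1.54, 1.75 and 1.25. ACADSB, of isoleucine breakdown, passed no test at 18.1 and 25.1 CPM in rumen, 10.43 and 1.41 CPM in Liver 1 and 2 and 15.3 and 14.1 CPM in forebrain, Liver 2 being its lowest library.

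Among the later steps of the spiral, HADHA, HADHB and ECHS1 were lower in rumen than in liver. HADHA and HADHB, the 2 subunits of the trifunctional protein for long chains, are next to each other in RefSeq's ARS-UCD2.0 gene table, with 0 protein-coding genes between them. HADHA had 117 and 107 CPM in rumen, 202 and 180.0 CPM in liver and 56.6 and 62.1 CPM in forebrain, higher in rumen than in forebrain by 1.89-fold (edgeR adjusted p = 0.0109). HADHB had 81.4 and 100.0 CPM in rumen, 229 and 195 CPM in liver and 127 and 133 CPM in forebrain, with both Rumen libraries below both Forebrain libraries but no call (log2 fold change -0.52; edgeR adjusted p = 0.0913). In rumen against liver both subunits were lower, HADHA by 1.70-fold (edgeR adjusted p = 0.0207) and HADHB by 2.33-fold (edgeR adjusted p = 0.00446). HADH, the dehydrogenase for shorter chains, had both Rumen libraries above the other 4, at 167 and 153 CPM in rumen, 144 and 132 CPM in liver and 57.6 and 57.5 CPM in forebrain. It was 2.79-fold higher in rumen than in forebrain (log2 fold change 1.48 ± 0.198 SE; edgeR adjusted p = 0.00151) and did not pass against liver. ECHS1, the short-chain hydratase, had 98.7 and 115 CPM in rumen, 266 and 190.4 CPM in liver and 103 and 104 CPM in forebrain. It was 2.13-fold lower in rumen than in liver (edgeR adjusted p = 0.0103), and its rumen and forebrain libraries overlapped. Of the 13 tested beta-oxidation genes, 0 were higher and 7 lower in rumen against liver by edgeR (the count of higher ones was 1 at an unadjusted p under 0.05 and 0 by DESeq2), 5 were higher and 1 lower in rumen against forebrain, and 11 were higher and 0 lower in liver against forebrain (the count of lower ones was 1 at an unadjusted p under 0.05 and 1 by DESeq2). ACAD9 (log2 fold change -1.91 to -0.64) and HADHA (log2 fold change -0.84 to -0.68) lost their calls in rumen against liver without either Rumen library or either Forebrain library. ACADVL (log2 fold change -1.83 to -0.80) and ECHS1 (log2 fold change -1.31 to -0.83) lost their calls in rumen against liver without either Rumen library. HADHB (log2 fold change -1.35 to -1.08) lost its call in rumen against liver without Rumen 1. ACAD9 (log2 fold change 1.36 to 1.55), ACADM (log2 fold change -1.74 to -1.66), ACADVL (log2 fold change 1.00 to 1.29) and HADHA (log2 fold change 0.85 to 1.02) lost their calls in rumen against forebrain without either Rumen library or either Forebrain library. ACADS (log2 fold change 1.20 to 1.71) lost its call in rumen against forebrain without Rumen 2 or either Forebrain library. ACAD11 (log2 fold change 1.07 to 1.41), ACADL (log2 fold change 1.33 to 1.71) and ECHS1 (log2 fold change 0.88 to 1.36) lost their calls in liver against forebrain without either Forebrain library. ACAD8 (log2 fold change 0.58 to 2.38) and HADHB (log2 fold change 0.58 to 0.81) lost their calls in liver against forebrain without either Rumen library or either Forebrain library. ACAD9 had a log2 fold change of 2.08 without Liver 2 in liver against forebrain. ACADVL had a log2 fold change of 1.91 without Liver 2 in liver against forebrain. The calls of ACAD9 in rumen against liver, HADHA in rumen against liver, ACAD9 in rumen against forebrain, ACADVL in rumen against forebrain, ACAD11 in liver against forebrain, ACAD8 in liver against forebrain, ACADL in liver against forebrain and HADHB in liver against forebrain were also lost with library totals as the only scaling. The call of ACADVL in rumen against forebrain was also lost with RLE scaling factors.

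Peroxisomal acyl-CoA oxidases shorten chains that mitochondria do not take. ACOX2, which acts on branched chains and bile acid precursors, had 19.4 and 19.0 CPM in rumen, 25.5 and 105 CPM in Liver 1 and 2 and 0.813 and 0.505 CPM in forebrain. It was 29.1-fold higher in rumen than in forebrain (edgeR adjusted p = 0.00656) and 98.8-fold higher in liver than in forebrain (edgeR adjusted p = 0.000937), while rumen against liver did not pass (edgeR adjusted p = 0.0522). ACOX3, another oxidase of branched chains, was 3.59-fold lower in rumen than in liver (edgeR adjusted p = 0.0385), at 19.1 and 21.9 CPM in rumen, 31.9 and 115 CPM in Liver 1 and 2 and 21.1 and 16.0 CPM in forebrain. Both oxidases were higher in Liver 2 than in Liver 1. ACOX3 (log2 fold change -2.49 to -0.64) lost its call in rumen against liver without either Rumen library or either Forebrain library. ACOX2 (log2 fold change 4.58 to 5.24) lost its call in rumen against forebrain without either Forebrain library. ACOX3 (log2 fold change 0.78 to 2.63) lost its call in liver against forebrain without either Rumen library or either Forebrain library. ACOX2 had a log2 fold change of 5.27 without Liver 2 and 7.31 without Liver 1 in liver against forebrain. The calls of ACOX3 in rumen against liver and ACOX3 in liver against forebrain were also lost with library totals as the only scaling.

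Thioesterases, which release free fatty acids from coenzyme A, divided between the tissues. ACOT7, a cytosolic thioesterase of neurons, had 55.6 and 50.0 CPM in rumen, 57.3 and 17.5 CPM in liver and 320.0 and 425 CPM in forebrain. It was 7.05-fold lower in rumen than in forebrain (log2 fold change -2.82 ± 0.516 SE; edgeR adjusted p = 0.00550) and 10.0-fold lower in liver than in forebrain (edgeR adjusted p = 0.00198). ACOT13, a small thioesterase bound to mitochondria, followed the same order at 84.3 and 85.7 CPM in rumen, 60.5 and 47.5 CPM in liver and 138 and 135 CPM in forebrain, and passed in all 3 comparisons. ACOT9, a mitochondrial thioesterase, was highest in liver, at 41.3 and 50.6 CPM in rumen, 97.8 and 135 CPM in liver and 16.3 and 14.5 CPM in forebrain, and 2.99-fold higher in rumen than in forebrain (edgeR adjusted p = 0.00441). ACOT2, the long-chain thioesterase of the mitochondrial matrix, was 1 of the 2 enzymes above both other tissues in rumen. It had 16.1 and 11.9 CPM in rumen, 4.77 and 3.21 CPM in liver and 5.61 and 6.35 CPM in forebrain, 3.52-fold higher than in liver (edgeR adjusted p = 0.0127) and 2.33-fold higher than in forebrain (edgeR adjusted p = 0.0467). ACOT2 and ACOT4 are neighbouring copies whose reads can be shared, so both levels are uncertain. ACOT4, ACOT8, of peroxisomes, ACOT11 and the acetyl-CoA hydrolase ACOT12 passed no test. ACOT8 came closest, with 25.0 and 24.3 CPM in rumen, 44.5 and 17.5 CPM in Liver 1 and 2 and 13.5 and 12.4 CPM in forebrain (edgeR adjusted p = 0.0526 in liver against forebrain). Of the 8 thioesterases, 2 were higher and 1 lower in rumen against liver, 2 higher and 2 lower in rumen against forebrain, and 1 higher and 2 lower in liver against forebrain. ACOT13 (log2 fold change 0.49 to 0.84) lost its call in rumen against liver without either Rumen library or either Forebrain library. ACOT2 (log2 fold change 1.55 to 2.12) and ACOT9 (log2 fold change -1.55 to -1.09) lost their calls in rumen against liver without Rumen 1. ACOT13 (log2 fold change -0.69 to -0.65) and ACOT2 (log2 fold change 0.98 to 1.45) lost their calls in rumen against forebrain without either Rumen library or either Forebrain library. ACOT7 (log2 fold change -2.99 to -2.57) lost its call in rumen against forebrain without either Rumen library. ACOT9 (log2 fold change 1.45 to 1.71) lost its call in rumen against forebrain without Forebrain 2. ACOT7 had a log2 fold change of -4.41 without Liver 1 and -2.71 without Liver 2 in liver against forebrain. The call of ACOT2 in rumen against forebrain was also lost with library totals as the only scaling. The call of ACOT2 in rumen against forebrain was also lost with RLE scaling factors. The calls of ACOT13 in rumen against liver and ACOT2 in rumen against forebrain were also lost with no filter on low counts.

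The enzymes of fatty acid synthesis were lower in rumen than in liver for FASN and ACACA. FASN, the synthase that builds palmitate, had 114 and 122 CPM in rumen, 203 and 367 CPM in liver and 166 and 159.9 CPM in forebrain. It was 2.42-fold lower in rumen than in liver (edgeR adjusted p = 0.0142), with both Rumen libraries below both Forebrain libraries but no call there (edgeR adjusted p = 0.249). ACACA, the carboxylase that supplies malonyl-CoA, had 7.81 and 13.9 CPM in rumen, 34.5 and 24.0 CPM in liver and 11.8 and 7.87 CPM in forebrain, 2.69-fold lower in rumen than in liver (edgeR adjusted p = 0.0312). ACACB, the mitochondrial-surface carboxylase that restrains CPT1A, was low in all 6 libraries, between 0.447 CPM in Liver 1 and 1.95 CPM in Rumen 2, and passed no test. Between rumen and forebrain 0 of the 3 enzymes passed in either direction by edgeR on all 6 libraries (0 higher and 0 lower at an unadjusted p under 0.05, and 0 and 0 by DESeq2). FASN had a log2 fold change of -0.47 there. With the Rumen and Forebrain libraries alone, a fit added after the data were seen, FASN was called lower in rumen. ACACA (log2 fold change -1.88 to -1.07) lost its call in rumen against liver without either Rumen library or either Forebrain library. FASN (log2 fold change -1.64 to -0.79) lost its call in rumen against liver without either Rumen library. ACACA (log2 fold change 1.30 to 1.89) lost its call in liver against forebrain without either Forebrain library. The calls of ACACA in rumen against liver and ACACA in liver against forebrain were also lost with library totals as the only scaling.

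Elongases and desaturases were mostly lower in rumen, with some isozymes highest in liver and others in forebrain. SCD and SCD5, the desaturases that make monounsaturated chains, had different orders. SCD had 84.5 and 101 CPM in rumen, 305 and 632 CPM in liver and 239.9 and 283 CPM in forebrain, 5.06-fold lower in rumen than in liver (edgeR adjusted p = 0.00281) and 2.82-fold lower than in forebrain (edgeR adjusted p = 0.0155). SCD5 had 16.3 and 20.5 CPM in rumen, 18.7 and 27.6 CPM in liver and 313 and 346 CPM in forebrain, 17.9-fold lower in rumen than in forebrain (log2 fold change -4.16 ± 0.288 SE; edgeR adjusted p = 0.000129) and 14.2-fold lower in liver than in forebrain (edgeR adjusted p = 7.4e-05). FADS3, a desaturase of the sphingoid base of ceramides, was far higher in liver than in the other tissues, at 13.7 and 11.7 CPM in rumen, 576 and 420.5 CPM in liver and 22.9 and 29.6 CPM in forebrain. It was 39.2-fold lower in rumen than in liver (log2 fold change -5.29 ± 0.300 SE; edgeR adjusted p = 7.18e-05) and 18.9-fold higher in liver than in forebrain (edgeR adjusted p = 5.02e-05). FADS2, the first desaturase of polyunsaturated fatty acids, had 25.4 and 25.7 CPM in rumen, 67.2 and 324 CPM in Liver 1 and 2 and 127 and 117 CPM in forebrain, 7.67-fold lower in rumen than in liver (edgeR adjusted p = 0.0128) and 4.78-fold lower than in forebrain (edgeR adjusted p = 0.0319). FADS6, a desaturase relative, stood at 16.8 and 15.7 CPM in rumen, 58.5 and 84.6 CPM in liver and 4.64 and 5.92 CPM in forebrain, with all 3 comparisons called. FADS1, CPT1C and ACSL4 were not analysed here.

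ELOVL4, which makes the very long chains of brain, retina and skin, had 1.61 and 1.87 CPM in rumen, 0.149 and 0.257 CPM in liver and 92.2 and 68.1 CPM in forebrain. All 3 tissues were apart, at log2 fold changes of 3.02 in rumen against liver (edgeR adjusted p = 0.00931), -5.52 in rumen against forebrain (edgeR adjusted p = 6.13e-05) and -8.54 in liver against forebrain (edgeR adjusted p = 1.4e-05). ELOVL1, of saturated very long chains, had 109 and 90.2 CPM in rumen, 128 and 184 CPM in liver and 26.8 and 25.9 CPM in forebrain, 3.77-fold higher in rumen than in forebrain (edgeR adjusted p = 0.00168). ELOVL5, of polyunsaturated chains, and ELOVL7, of saturated long chains, were lower in rumen than in both other tissues. ELOVL5 had 30.2 and 30.8 CPM in rumen, 92.2 and 109 CPM in liver and 68.2 and 76.2 CPM in forebrain, and ELOVL7 had 6.05 and 5.15 CPM in rumen, 24.3 and 54.2 CPM in liver and 18.5 and 15.6 CPM in forebrain. ELOVL2, of polyunsaturated chains, passed no test at 1.45 and 0 CPM in Rumen 1 and 2, 4.54 and 2.44 CPM in liver and 4.31 and 4.26 CPM in forebrain, with 0 counts in Rumen 2. ELOVL6, which lengthens palmitate, passed none either at 27.9 and 30.8 CPM in rumen, 39.9 and 19.1 CPM in liver and 54.3 and 37.1 CPM in forebrain, and ELOVL3 had 0 and 0 counts in rumen, 0 and 4 in liver and 11 and 7 in forebrain. Of the 11 tested elongases and desaturases, 1 was higher and 6 lower in rumen against liver, 2 higher and 7 lower in rumen against forebrain, and 4 higher and 2 lower in liver against forebrain. FADS2 (log2 fold change -3.67 to -1.40) lost its call in rumen against liver without either Rumen library. ELOVL7 had a log2 fold change of -2.12 without Liver 2 in rumen against liver. SCD had a log2 fold change of -1.72 without Liver 2 in rumen against liver. ELOVL5 (log2 fold change -1.30 to -1.13) lost its call in rumen against forebrain without either Rumen library or Forebrain 2. ELOVL7 (log2 fold change -1.73 to -1.45), FADS2 (log2 fold change -2.29 to -2.18), FADS3 (log2 fold change -1.20 to -0.82) and SCD (log2 fold change -1.60 to -1.34) lost their calls in rumen against forebrain without either Rumen library or either Forebrain library. FADS6 (log2 fold change 1.48 to 1.83) lost its call in rumen against forebrain without Rumen 1 or either Forebrain library. ELOVL7 (log2 fold change 0.51 to 1.67) lost its call in liver against forebrain without either Rumen library or Liver 2 or either Forebrain library. The call of ELOVL7 in liver against forebrain was also lost with library totals as the only scaling. The call of ELOVL7 in liver against forebrain was also lost with RLE scaling factors.

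Ceramide synthases attach a fatty acid to the sphingoid base, and each tissue held the highest level of some of them. CERS3, which makes the ultra-long-chain ceramides of the epidermal barrier, had counts in rumen alone. Its counts were 267 and 231 in Rumen 1 and Rumen 2, or 20.4 and 18.0 CPM, and 0 in each Liver and Forebrain library. Its pooled rumen level was at least 186-fold higher than the floor in liver (edgeR adjusted p = 0.00182) and at least 168-fold higher than that in forebrain (edgeR adjusted p = 0.00204). Of the 9 stratified squamous epithelium markers in the table, TP63 and IVL were at 0 in liver and the other 7 had counts there, while KRT14, KRT15, TP63, IVL and DSG3 were at 0 in forebrain and the other 4 had counts there. CERS2, of very long chains, had 136 and 137 CPM in rumen, 339.6 and 329.8 CPM in liver and 33.8 and 43.5 CPM in forebrain, 2.46-fold lower in rumen than in liver (edgeR adjusted p = 0.00312) and 3.52-fold higher in rumen than in forebrain (edgeR adjusted p = 0.000945). CERS4 ran opposite to CERS2, at 26.3 and 20.8 CPM in rumen, 13.6 and 12.7 CPM in liver and 53.5 and 52.2 CPM in forebrain, 1.79-fold higher in rumen than in liver (edgeR adjusted p = 0.0434) and 2.24-fold lower in rumen than in forebrain (edgeR adjusted p = 0.0118). CERS1, the neuronal form, had 5.97 and 3.59 CPM in rumen, 6.03 and 2.57 CPM in liver and 12.04 and 14.6 CPM in forebrain, and passed in liver against forebrain (edgeR adjusted p = 0.0287). CERS5 and CERS6 passed no test, and CERS6 did not exceed 0.781 CPM in any library. In RefSeq's gene table CERS1 overlaps GDF1, CERS2 overlaps SETDB1 and FADS2 overlaps FADS1, from gene start to gene end. GDF1 and FADS1 were not among the counted symbols. No source used here states the strand setting of the counting, so whether such pairs share reads is not known. In all, 32 of the 76 enzymes overlap another gene in that table, and 12 overlap one that was counted. Of the 6 ceramide synthases, 2 were higher and 1 lower in each rumen comparison, and 1 was higher and 2 lower in liver against forebrain. CERS4 (log2 fold change 0.67 to 1.02) lost its call in rumen against liver without either Rumen library or either Forebrain library. CERS4 (log2 fold change -1.35 to -0.98) lost its call in rumen against forebrain without either Rumen library or either Forebrain library. CERS1 (log2 fold change -2.38 to -1.15) lost its call in liver against forebrain without either Rumen library or either Forebrain library.

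Among cholesterol synthesis enzymes, HMGCS1, ACAT2 and IDI1 were highest in forebrain. HMGCS1, the cytosolic synthase of the pathway, had 129 and 143 CPM in rumen, 119 and 284 CPM in liver and 917 and 869 CPM in forebrain. It was 6.56-fold lower in rumen than in forebrain (log2 fold change -2.71 ± 0.408 SE; edgeR adjusted p = 0.00245) and 4.43-fold lower in liver than in forebrain (edgeR adjusted p = 0.00377). ACAT2, the cytosolic thiolase before HMGCS1, had 44.8 and 45.0 CPM in rumen, 60.6 and 55.2 CPM in liver and 121 and 133 CPM in forebrain, 2.82-fold lower in rumen than in forebrain (edgeR adjusted p = 0.00177). It overlaps TCP1 in RefSeq's table, so its reads carry the same uncertainty. IDI1, the isomerase of isopentenyl units, had 41.6 and 51.5 CPM in rumen, 38.2 and 86.0 CPM in liver and 161 and 172 CPM in forebrain, 3.58-fold lower in rumen than in forebrain (edgeR adjusted p = 0.00919).

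FDFT1, which makes squalene, had 67.4 and 69.9 CPM in rumen, 105 and 158 CPM in liver and 118 and 121 CPM in forebrain, lower in rumen than in liver by 1.92-fold (edgeR adjusted p = 0.0226) and than in forebrain by 1.74-fold (edgeR adjusted p = 0.0396). DHCR7, the last reductase of one branch, showed the same placing of rumen at 47.6 and 50.1 CPM in rumen, 129 and 171 CPM in liver and 125 and 119 CPM in forebrain, 3.08-fold lower than in liver (edgeR adjusted p = 0.00176) and 2.49-fold lower than in forebrain (edgeR adjusted p = 0.00421). SQLE, the epoxidase, passed no test by edgeR on all 6 libraries, at 106 and 112 CPM in rumen, 108 and 367 CPM in Liver 1 and 2 and 292 and 296 CPM in forebrain. Liver 1 lay among the rumen libraries and Liver 2 above the forebrain ones. In rumen against forebrain SQLE had a log2 fold change of -1.43, and -1.45 to -1.40 with 1 library left out. It was called lower there by DESeq2, with library totals as the only scaling and with the Rumen and Forebrain libraries alone. LSS, the cyclase that forms lanosterol, was highest in liver and higher in Liver 1. It had 1.91 and 2.73 CPM in rumen, 29.8 and 8.93 CPM in Liver 1 and 2 and 3.01 and 2.67 CPM in forebrain, 8.26-fold lower in rumen than in liver (edgeR adjusted p = 0.0131). All 9 enzymes had a negative log2 fold change in rumen against each other tissue, and 5 were lower against liver and 6 against forebrain, with 0 higher in either by edgeR. Over all tested genes 21.8% were lower in rumen against liver and 21.5% against forebrain. The share of all tested genes with a negative sign was not counted. Without Liver 2 the log2 fold changes of HMGCS1, IDI1 and SQLE in rumen against liver were 0.20, 0.29 and 0.01. At an unadjusted p under 0.05, 0 were higher against liver and 0 against forebrain, and by DESeq2 the counts were 0 and 0. In liver against forebrain 2 were higher and 4 lower. FDFT1 (log2 fold change -1.20 to -0.61) lost its call in rumen against liver without either Rumen library or either Forebrain library. LSS (log2 fold change -3.68 to -1.94) lost its call in rumen against liver without either Rumen library. DHCR7 (log2 fold change -1.33 to -1.27) lost its call in rumen against forebrain without either Rumen library. FDFT1 (log2 fold change -0.81 to -0.76) and IDI1 (log2 fold change -1.98 to -1.70) lost their calls in rumen against forebrain without either Rumen library or either Forebrain library. IDI1 (log2 fold change -2.13 to -0.96) and LSS (log2 fold change 1.65 to 3.39) lost their calls in liver against forebrain without either Forebrain library. HMGCS1 had a log2 fold change of -2.91 without Liver 2 in liver against forebrain. The call of FDFT1 in rumen against liver was also lost with library totals as the only scaling.

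**Figure D3:**
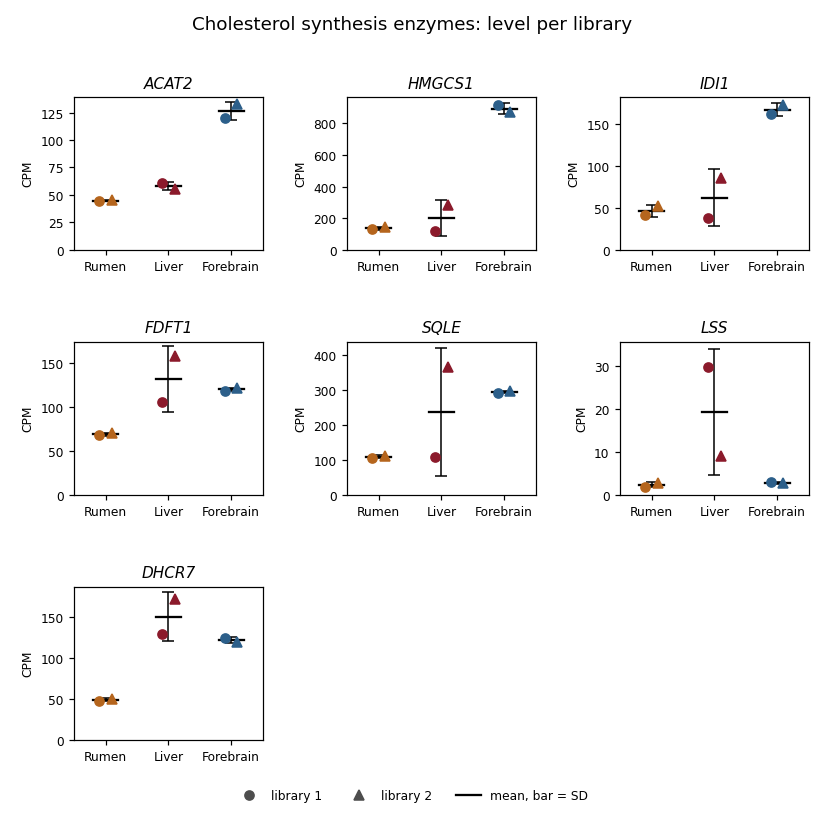
CPM of 7 of the 9 cholesterol synthesis enzymes in rumen, liver and forebrain in the order of the pathway's steps, with circles for library 1, triangles for library 2, a line at the mean and a bar of 1 SD (n = 2). ACAT2, HMGCS1 and IDI1 are highest in forebrain, LSS in liver, and the Liver libraries of SQLE lie at 108 and 367 CPM.

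**Figure D4:**
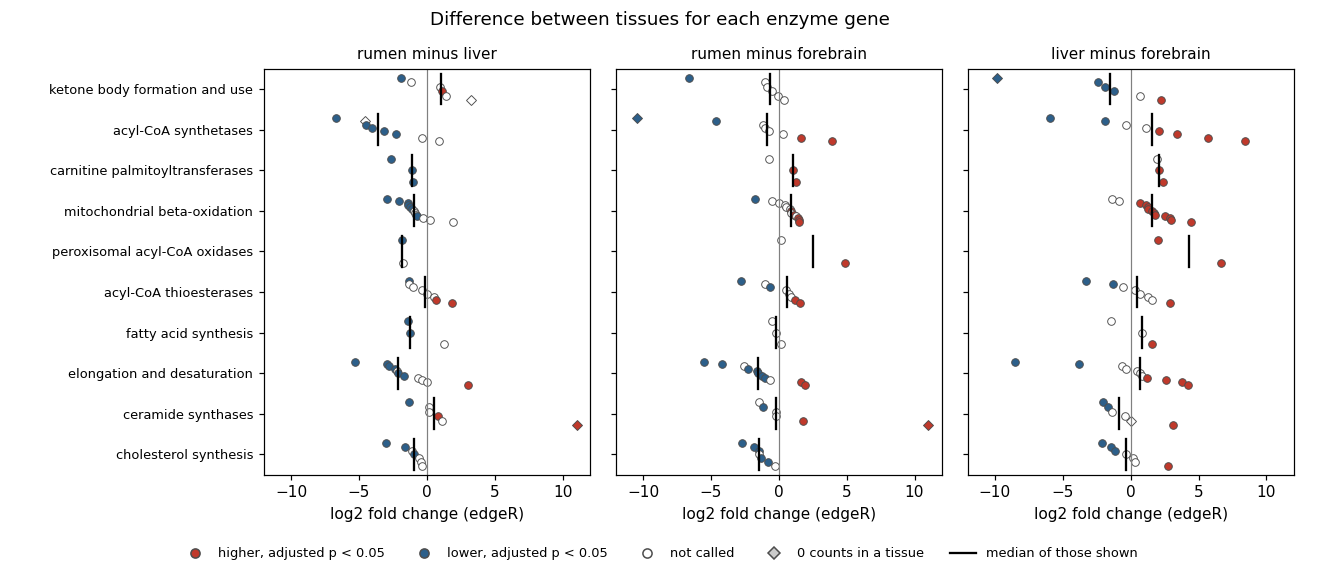
Log2 fold changes (edgeR) of 67 of the 72 tested enzymes by role group in rumen minus liver, rumen minus forebrain and liver minus forebrain, with called enzymes filled, uncalled ones open, genes with 0 counts in a tissue as diamonds and a line at the median of those shown. Cholesterol synthesis lies at or left of 0 in both rumen panels, while beta-oxidation lies mostly left of 0 against liver and right of 0 against forebrain; the fitted values of diamonds depend on a prior count.

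Other genes of these pathways, in lists drawn up by function with earlier results of these data known, were counted beside the members. Over all tested genes 21.2% were higher and 21.8% lower in rumen against liver, and 20.3% and 21.5% in rumen against forebrain. In liver against forebrain the shares were 30.5% and 27.3%. The lists were not tested against these shares. Of 24 tested further sterol genes, 1 was higher and 11 lower in rumen against liver, 4 higher and 10 lower in rumen against forebrain, and 10 higher and 4 lower in liver against forebrain. SREBF2, the transcription factor of sterol genes, had 163 and 157 CPM in rumen, 264 and 312 CPM in liver and 85.5 and 73.1 CPM in forebrain, 2.02-fold higher in rumen than in forebrain (edgeR adjusted p = 0.00831), opposite in direction to HMGCS1. INSIG1, which holds the sterol sensor in the endoplasmic reticulum, passed no test, at 59.1 and 68.8 CPM in rumen, 49.4 and 112 CPM in liver and 55.0 and 58.2 CPM in forebrain. CYP46A1, the neuronal enzyme that clears brain cholesterol, had 0.612 and 0.234 CPM in rumen, 0.596 and 0 CPM in liver and 33.7 and 26.8 CPM in forebrain (edgeR adjusted p = 0.000445 in rumen against forebrain), and SOAT2, which esterifies cholesterol, had 0.459 and 0 CPM in rumen, 44.5 and 86.3 CPM in liver and 0 and 0 CPM in forebrain (edgeR adjusted p = 0.000429 in rumen against liver). The rumen counts of SOAT2 all lay in Rumen 1. SREBF2 (log2 fold change 0.94 to 1.15) lost its call in rumen against forebrain without either Rumen library or either Forebrain library. CYP46A1 had a log2 fold change of -6.96 without Rumen 1 in rumen against forebrain.

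Of 24 further beta-oxidation genes, 1 was higher and 12 lower in rumen against liver, 8 higher and 4 lower in rumen against forebrain, and 17 higher and 2 lower in liver against forebrain. PPARA, the nuclear receptor for fatty acids, had 1.53 and 1.25 CPM in rumen, 10.9 and 6.87 CPM in liver and 1.55 and 0.578 CPM in forebrain, lower in rumen than in liver (log2 fold change -2.66; edgeR adjusted p = 0.0105). DECR1, the reductase for unsaturated chains, was the gene that was higher than in liver, at 68.3 and 69.2 CPM in rumen, 23.7 and 36.1 CPM in liver and 5.12 and 6.14 CPM in forebrain, 2.295-fold higher in rumen than in liver (edgeR adjusted p = 0.0155) and 12.2-fold higher than in forebrain (edgeR adjusted p = 0.000345). Of 16 further fatty acid synthesis genes, 3 were higher and 5 lower in rumen against liver, 5 and 3 in rumen against forebrain, and 6 and 4 in liver against forebrain. ACLY, which makes cytosolic acetyl-CoA, had 116 and 101 CPM in rumen, 105 and 114 CPM in liver and 243 and 228 CPM in forebrain, 2.17-fold lower in rumen than in forebrain (edgeR adjusted p = 0.00476). SREBF1, the factor of fatty acid synthesis genes, had 47.8 and 34.5 CPM in rumen, 149.5 and 203 CPM in liver and 13.6 and 12.3 CPM in forebrain, with all 3 comparisons called. PPARG, the receptor known from fat and from epithelia, was highest in rumen at 18.8 and 24.0 CPM in rumen, 2.46 and 10.0 CPM in liver and 0.325 and 0.433 CPM in forebrain, 54.8-fold higher in rumen than in forebrain (edgeR adjusted p = 0.00182). The adipocyte markers, 5 of 6 in the table, summed to 12.2 to 15.6 CPM in rumen, 47.7 to 65.6 CPM in liver and 27.3 to 30.5 CPM in forebrain, with LEP and FABP4 at 0 in all 3 tissues. PPARA (log2 fold change -2.97 to -2.30) and DECR1 (log2 fold change 0.93 to 1.54) lost their calls in rumen against liver without either Rumen library. PPARG (log2 fold change 1.09 to 3.12) lost its call in rumen against liver without either Rumen library or either Forebrain library. ACLY (log2 fold change -1.22 to -0.997) lost its call in rumen against forebrain without Rumen 2 or Forebrain 1. SREBF1 (log2 fold change 1.41 to 1.91) lost its call in rumen against forebrain without Forebrain 2.

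Of 15 further sphingolipid genes, 3 were higher and 3 lower in rumen against liver, 4 and 1 in rumen against forebrain, and 4 and 0 in liver against forebrain by edgeR (3 lower at an unadjusted p under 0.05, and 3 by DESeq2). SGMS2, a sphingomyelin synthase, was higher in rumen than in both other tissues, at 5.36 and 5.07 CPM in rumen, 0.521 and 0.964 CPM in liver and 0.732 and 1.08 CPM in forebrain. Of 12 further genes of ketone and short-chain acid handling, 0 were higher and 5 lower in rumen against liver by edgeR (0 higher at an unadjusted p under 0.05, and 0 by DESeq2), 2 higher and 5 lower in rumen against forebrain, and 7 higher and 1 lower in liver against forebrain. The subunits of propionyl-CoA carboxylase, PCCA and PCCB, were both lower in rumen than in liver. PCCA had 16.6 and 15.8 CPM in rumen, 74.4 and 57.0 CPM in liver and 32.7 and 25.7 CPM in forebrain, 4.06-fold lower in rumen than in liver (edgeR adjusted p = 0.00171), and PCCB was 3.34-fold lower (edgeR adjusted p = 0.00221). The monocarboxylate transporter SLC16A6 was 11.6-fold lower in rumen than in liver (edgeR adjusted p = 0.00215), at 1.38 and 5.00 CPM in rumen, 33.1 and 41.0 CPM in liver and 10.41 and 10.6 CPM in forebrain. SGMS2 (log2 fold change 2.42 to 3.30) lost its call in rumen against liver without Rumen 1. SLC16A6 had a log2 fold change of -4.71 without Rumen 2 and -2.89 without Rumen 1 in rumen against liver. SGMS2 (log2 fold change 2.28 to 2.85) lost its call in rumen against forebrain without either Rumen library or either Forebrain library.

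Of the 72 enzymes, 5 (6.94%) differed over 2-fold within the Rumen pair, 26 (36.1%) within the Liver pair and 1 (1.39%) within the Forebrain pair. Over all tested genes the share was 11.1% in rumen, 33.4% in liver and 7.35% in forebrain. Among cholesterol enzymes the difference ran both ways. LSS was 3.34-fold higher in Liver 1, whereas SQLE was 3.38-fold, HMGCS1 2.38-fold and IDI1 2.25-fold higher in Liver 2. FADS2 was 4.82-fold and ACOX2 4.10-fold higher in Liver 2, while OXCT1 was 5.78-fold and ACADSB 7.38-fold higher in Liver 1. Erythroid markers summed to 150938 CPM in Liver 1 and 58580 CPM in Liver 2, macrophage markers, 7 of 8 in the table, to 1044 and 438 CPM, and hepatocyte markers to 234235 and 198157 CPM. The part of cell makeup in these differences was not tested. ACAT1, CERS2, ACSS1 and HADH, named here after their values were seen, differed between the Liver libraries by at most 1.09-fold.

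**Figure D5:**
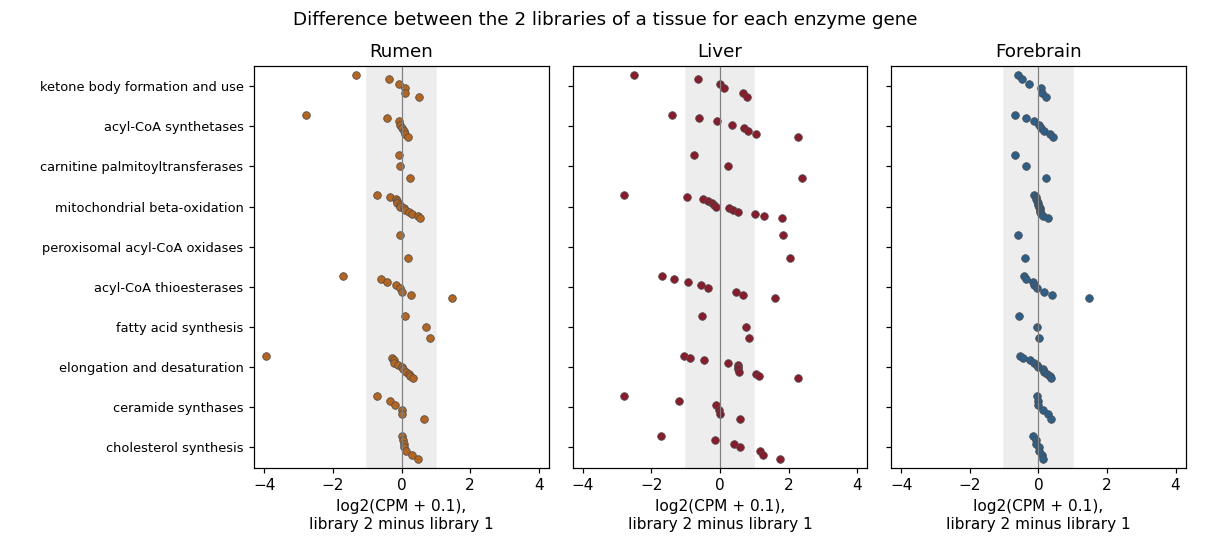
Difference between library 2 and library 1 of each tissue, as log2(CPM + 0.1), for 67 of the 72 tested enzymes by role group, with grey marking differences under 2-fold. Points of rumen and forebrain mostly lie within the grey band, while 24 liver points lie outside it, on both sides.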

How the data were processed

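Messenger RNA was measured in 6 libraries, 2 each of rumen, liver and forebrain. The deposited values were raw counts per gene symbol in 1 table per the file headers. The submitters' processing notes name HISAT2 2.0.5, featureCounts 1.5.0-p3 and edgeR 3.18.1; build, annotation and strandedness of the counting were not given in the sources used here.

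Counts were analysed in R 4.3.3 with edgeR 4.0.16. Genes passed filterByExpr by tissue, libraries were scaled by TMM, and a quasi-likelihood model with 1 term per tissue was fitted to all 6 libraries and 11478 genes and tested on simulated data first. The 3 comparisons between tissues used Benjamini-Hochberg adjustment and a threshold of 0.05. Levels are CPM of the effective library size; 0.1 CPM was added for logarithms in figures and library differences. Total counts were 10271024 to 18528958 per library, and floors of 3 counts cover counting error only. CPM carries no gene length, so levels were not compared between genes.

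Members were chosen by symbol, and members and lists were chosen with earlier results of these data known. In each role group and comparison the up to 3 called members with the largest absolute log2 fold change are named, together with main enzymes of each pathway whether called or not; some genes under this rule are not reported here. The alternatives were RLE factors, library totals alone, no filter, DESeq2 1.42.0, a replicate block and leaving out each library. All 76 symbols were found in RefSeq's ARS-UCD2.0 gene table, used for overlaps and neighbours only. Sequences were not used here.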

Additional observations from a re-analysis of the deposited data

How the results depend on the processing

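With RLE factors, no filter, DESeq2 or library totals alone, each count of enzymes called higher or lower in a comparison stayed within 1.5 times the reported one. Leaving out 1 library at a time gave 2 to 10 higher and 18 to 42 lower in rumen against liver, 5 to 22 higher and 8 to 32 lower in rumen against forebrain, and 20 to 39 higher and 11 to 21 lower in liver against forebrain. With the Rumen and Forebrain libraries alone, a fit chosen after the data were seen, 31 were lower in rumen against forebrain. Without each library in turn, 2 of 6 higher and 16 of 34 lower calls were kept in rumen against liver, 5 of 17 and 8 of 20 in rumen against forebrain, and 20 of 32 and 11 of 16 in liver against forebrain. A fit without 1 library also has fewer samples, and the counts over all tested genes rose or fell together with those of the enzymes.

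No called enzyme changed direction under these alternatives. Log2 fold changes of enzymes that passed no test in the comparison did, without at least 1 library for 13 enzymes in rumen against liver, 6 in rumen against forebrain and 6 in liver against forebrain. In rumen against liver, leaving out 1 library gave -1.06 to 0.20 for HMGCS1, -0.88 to 0.29 for IDI1 and -1.75 to 0.008 for SQLE, each highest without Liver 2, and -1.92 to 0.61 for OXCT1, highest without Liver 1. ACAD8 ran from -1.56 to 0.24 there, ACOT7 from -0.12 to 1.59 and ACOT8 from -0.85 to 0.49, each with the changed sign without 1 Liver library. In rumen against forebrain ACACA had -0.006 with library totals alone and -0.30 to 0.50 without 1 library, negative without Rumen 2 and, at -0.09, without Forebrain 2. ECHS1 had -0.011 with RLE factors, -0.10 with library totals alone, -0.011 with DESeq2 and -0.04 to 0.15 without 1 library, negative without Rumen 2. In liver against forebrain, library totals alone gave -0.19 for DHCR7 and -0.35 for FDFT1. Leaving out 1 library there gave -0.19 to 0.40 for FDFT1, lowest without Liver 2, and -1.09 to 1.44 for OXCT1 and -1.45 to 0.31 for SQLE, with the changed sign without Liver 1. FADS2 had -0.87 without Liver 2 and 1.40 without Liver 1 there, each passing the edgeR test. The cause was not tested.

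The labels do not tie library numbers to fetuses, so the numbers were not taken as pairs. Deviations of same-numbered libraries from their tissue means correlated at 0.08 for liver with forebrain, -0.06 for rumen with forebrain and -0.00 for rumen with liver over 11478 genes. These correlations cannot settle the pairing, because a shared fetus need not shift the same genes in each tissue. With the replicate block 4 enzymes were higher and 33 lower in rumen against liver, 16 and 19 in rumen against forebrain, and 31 and 17 in liver against forebrain. Calls lost with it were those of ACOT13, CERS4 and CPT2 in rumen against liver, ACOT13, ACOT2 and FDFT1 in rumen against forebrain and ELOVL7 in liver against forebrain. With 2 libraries per tissue, some genes at low counts, such as ACACB, CERS6 and ACOT11, passed no test, which does not show equal levels. Others at low counts, such as BDH1, did pass.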

Other observations

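Several enzymes that passed no test had uneven pairs outside liver too. ACOT11, a thioesterase of brown fat in mice, had 0.383 and 1.25 CPM in Rumen 1 and 2, 2.31 and 1.16 CPM in Liver 1 and 2 and 0.244 and 0.866 CPM in Forebrain 1 and 2, the only enzyme to differ over 2-fold within the forebrain pair. ACOT12, a cytosolic acetyl-CoA hydrolase, had 1.99 and 0.546 CPM in Rumen 1 and 2, 1.49 and 4.69 CPM in Liver 1 and 2 and 2.93 and 2.24 CPM in Forebrain 1 and 2. The Rumen pair also differed over 2-fold for ELOVL2, ACSL6 and HMGCLL1, each higher in Rumen 1. CERS5, a ceramide synthase of long chains, was even by comparison, with 53.3 and 54.1 CPM in Rumen 1 and 2, 38.8 and 57.9 CPM in Liver 1 and 2 and 60.8 and 66.1 CPM in Forebrain 1 and 2. ACOT4 had 9.26 and 6.09 CPM in Rumen 1 and 2, 5.81 and 9.25 CPM in Liver 1 and 2 and 5.37 and 3.97 CPM in Forebrain 1 and 2. Of the dehydrogenases that passed in liver against forebrain alone, ACADL had 13.9 and 8.43 CPM in rumen, 11.8 and 15.5 CPM in liver and 4.72 and 4.69 CPM in forebrain. For ACAD8 the levels were 61.0 and 58.8 CPM in rumen, 50.6 and 176 CPM in Liver 1 and 2 and 34.6 and 32.8 CPM in forebrain, and for ACAD11 14.1 and 11.2 CPM in rumen, 24.3 and 19.2 CPM in liver and 9.03 and 9.24 CPM in forebrain.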
